A study of Mus musculus with 6 samples.

Results

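The retinoid metabolism genes Rbp4, Rdh10, Aldh1a1, Aldh1a2, Aldh1a3 and Cyp26b1 were followed through the cells of the lower abdominal muscle (LAM). They were chosen by name, as 6 of the 16494 genes of the deposited table, and all 6 were measured in every mouse. LAM tissue came from 3 wild-type (WT) and 3 Aromhum male FVB/N mice of 9-10 weeks, and 1 single-cell RNA-Seq library was made per mouse. Aromhum mice carry the whole human aromatase gene CYP19A1 under its own tissue-specific promoters and had scrotal hernias, so their LAM differed from WT LAM in both transgene and hernia. The tissue was digested with collagenase and Dispase and passed through a filter meant to remove multinucleated fibers, and 2026 cells with the myonuclear markers Acta1 and Ckm among their leading genes remained. By the methods of the study, 1 WT mouse and 1 Aromhum littermate were processed on each of 3 dates, and whether WT1 and Arom1 or other same-numbered mice are such a pair is not stated. Where a fit with the replicate number as a block (the blocked fit) changed a call, its value is given beside it.

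Retinoic acid is made from vitamin A inside cells. Retinol travels in plasma on retinol-binding protein 4 (Rbp4), retinol dehydrogenase 10 (Rdh10) oxidizes it to retinal, and the retinaldehyde dehydrogenases Aldh1a1, Aldh1a2 and Aldh1a3 oxidize retinal to retinoic acid, which Cyp26b1 and its relatives degrade. Retinoic acid acts through the nuclear receptors Rara, Rarb and Rarg with their Rxr partners, and mesothelium is a classic place of its synthesis in the embryo.

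The table held UMI counts for 63647 barcodes, with 64958237 to 111826460 UMIs per mouse and more in each Aromhum than in each WT mouse. Human CYP19A1 had 770, 797 and 787 UMIs in the 3 Aromhum mice and none in WT. Of the 63175 distinct barcode sequences, 471 occurred in more than 1 library. WT2 stood apart, with 68.2% of its barcodes over 5% mitochondrial UMIs against 27.6% to 40.1% in the other 5 mice. Cells were clustered without any of the retinoid genes, and clusters were named by marker genes or, where no set of markers settled the name, by leading genes. Msln and the other mesothelial markers summed to 4047 to 8088 CPM (UMIs of a gene scaled to the total UMIs of the cells) in mesothelial cells of each mouse and to 7.75 to 43.1 CPM in fibroblast-like cells. Genotypes were compared on UMIs summed per mouse and cell type with edgeR, so the mouse was the replicate and each p measures the spread between 3 and 3 mice.

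Sequence upstream of Aldh1a2 and Aldh1a1 is shown for a reason of location. Arom1 and Arom2 held most UMIs of both genes in a fibroblast-like subgroup named after Esr1, the estrogen receptor gene. Between the Aromhum mice the level of neither gene followed that of Esr1, as given with that subgroup. Within each of these mice Esr1 was slightly higher in the cells with Aldh1a2, as given further on. In GRCm38, Aldh1a2 lies on the plus strand of chromosome 9 (71215789 to 71296243), Aldh1a1 on the plus strand of chromosome 19 (20492715 to 20643465), Aldh1a3 on the minus strand of chromosome 7 (66390890 to 66427517), Rdh10 on the plus strand of chromosome 1 (16105774 to 16133734), Rbp4 on the minus strand of chromosome 19 (38116629 to 38125281) and Cyp26b1 on the minus strand of chromosome 6 (84571414 to 84593908). RefSeq promoter windows on GRCm38.p6 were matched for 4 of the 6 genes, Aldh1a1, Aldh1a2, Cyp26b1 and Rbp4, with 2 start sites each for Aldh1a1 and Rbp4. The 250 bases before the start are given 5′ to 3′ for chr9:71215539-71215788 (Aldh1a2) and chr19:20601718-20601967 (the downstream start of Aldh1a1), with capitals on the estrogen receptor half-site GGTCA or its complement TGACC.
Aldh1a2: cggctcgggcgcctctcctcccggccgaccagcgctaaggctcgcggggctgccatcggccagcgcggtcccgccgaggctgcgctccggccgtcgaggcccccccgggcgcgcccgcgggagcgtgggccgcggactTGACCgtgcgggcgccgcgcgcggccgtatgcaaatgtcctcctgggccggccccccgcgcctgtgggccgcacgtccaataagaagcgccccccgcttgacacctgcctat
Aldh1a1: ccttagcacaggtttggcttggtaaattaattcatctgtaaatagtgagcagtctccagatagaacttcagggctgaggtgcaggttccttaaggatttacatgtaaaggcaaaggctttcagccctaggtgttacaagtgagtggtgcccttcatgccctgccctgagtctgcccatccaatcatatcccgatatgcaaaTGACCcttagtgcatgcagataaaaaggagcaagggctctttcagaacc
A half-site began at -112 in Aldh1a2 and at -49 in this start of Aldh1a1, 1 start of Rbp4 held 2, and the other start of Aldh1a1, the other start of Rbp4 and Cyp26b1 held none. The Aldh1a1 start printed is thus the one of its 2 that holds a half-site, and 40.5% of all 32851 promoter windows hold one on either strand. The palindrome GGTCANNNTGACC (0.0700% of windows) and the retinoic acid response elements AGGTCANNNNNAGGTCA and AGGTCANNAGGTCA (0.00913% each) were in none of the members' windows, which says only that these letters are not there.

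The 6 genes differed in where they were highest, by levels in CPM over the 22 cell groups that were ranked. Fibroblast-like subgroups with under 10 cells in any mouse, such as the Esr1hi cells (31, 12 and 1 WT cells) and the Ahsg/Cxcl5 cells (12, 4 and 2 WT cells), are not among them. Aldh1a1 was highest in mesothelial cells at 273 ± 78.0 CPM (mean and SD, n = 6 mice), and its lowest mouse there, at 197 CPM, lay above the highest mouse of the next group, the Apod/Cxcl5 fibroblast-like cells (106 ± 20.3 CPM). Among the ranked groups Aldh1a2 was also highest in mesothelial cells (101 ± 35.0 CPM), but these overlapped the Cd74/Ccr7 cells (73.8 ± 27.6 CPM), a group led by genes of antigen presentation and by the chemokine receptor Ccr7, and those overlapped the Lars2/G0s2 fibroblast-like cells (52.4 ± 44.1 CPM). Aldh1a3 was highest in the Dmkn fibroblast-like cells, which also carry the epidermal genes Krtdap and Sbsn, at 251 ± 36.6 CPM, and the next group, again Lars2/G0s2 cells, did not reach it (75.3 ± 16 CPM). The ranked groups thus differed in the leading enzyme of this step, with mesothelial cells first for Aldh1a1 and Aldh1a2 and Dmkn cells for Aldh1a3. In Arom1 and Arom2 the unranked Esr1hi cells had more Aldh1a2 (97.0 and 109 CPM) than mesothelial cells of the same mice (69.0 and 55.5 CPM), and so had the unranked Ahsg/Cxcl5 cells (76.1 and 94.3 CPM).

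Rdh10 was highest in Apod/Cxcl5 (174 ± 63.9 CPM) and Sfrp5/Krt19 cells (161 ± 39.9 CPM), which overlapped each other and glial cells (95.5 ± 24.7 CPM). Within the study's limits on barcodes, Rdh10 in glial cells was at 20.0 ± 17.9 CPM. The Sfrp5/Krt19 cells came out of the fibroblast-like clusters, but none of the fibroblast markers is among their leading genes. Beside fibroblast markers (17511 to 22399 CPM in sum) they carried mesothelial markers at 558 to 793 CPM, against 7.75 to 43.1 CPM over all fibroblast-like cells. Krt19, a leading gene that names these cells, is itself in the mesothelial list. Its part in that sum was not separated, so the sum does not show a mesothelial character. Rbp4 was highest in the Gdf10/Cst3 cells at 786 ± 424 CPM, with a range over mice from 248 to 1250 CPM that overlapped the Igfbp2/Moxd1 fibroblast-like cells (362 ± 164 CPM). The study named Rbp4 among the estrogen-regulated genes that were high in, and specific to, its Esr1hi fibroblasts. Of the unranked Esr1hi cells 59.7% had an Rbp4 UMI. Within the study's limits on barcodes Rbp4 was at 462 ± 311 CPM in Esr1hi cells of the 3 Aromhum mice and at 1174 ± 627 CPM in Gdf10/Cst3 cells. Cyp26b1 had its highest mean in endothelial cells (41.2 ± 40.6 CPM), with a median of 25.1 CPM because WT2 alone reached 122 CPM. Rgs5/Abcc9 cells followed at 33.5 ± 24.2 CPM, with a median of 25.1 CPM as well, so by median endothelial cells did not lead. The Rgs5/Abcc9 cells, led by genes of smooth muscle and pericytes, also carried the 5 endothelial markers at 3017 to 3329 CPM in sum, not far below endothelial cells (3618 to 4451 CPM). The order below the first group was loose for Rdh10, Rbp4 and Cyp26b1, since neighbors overlapped at each of the first 4 ranks. Cells were built into groups from the same libraries, so these levels are a description without a test.

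**Figure D1:**
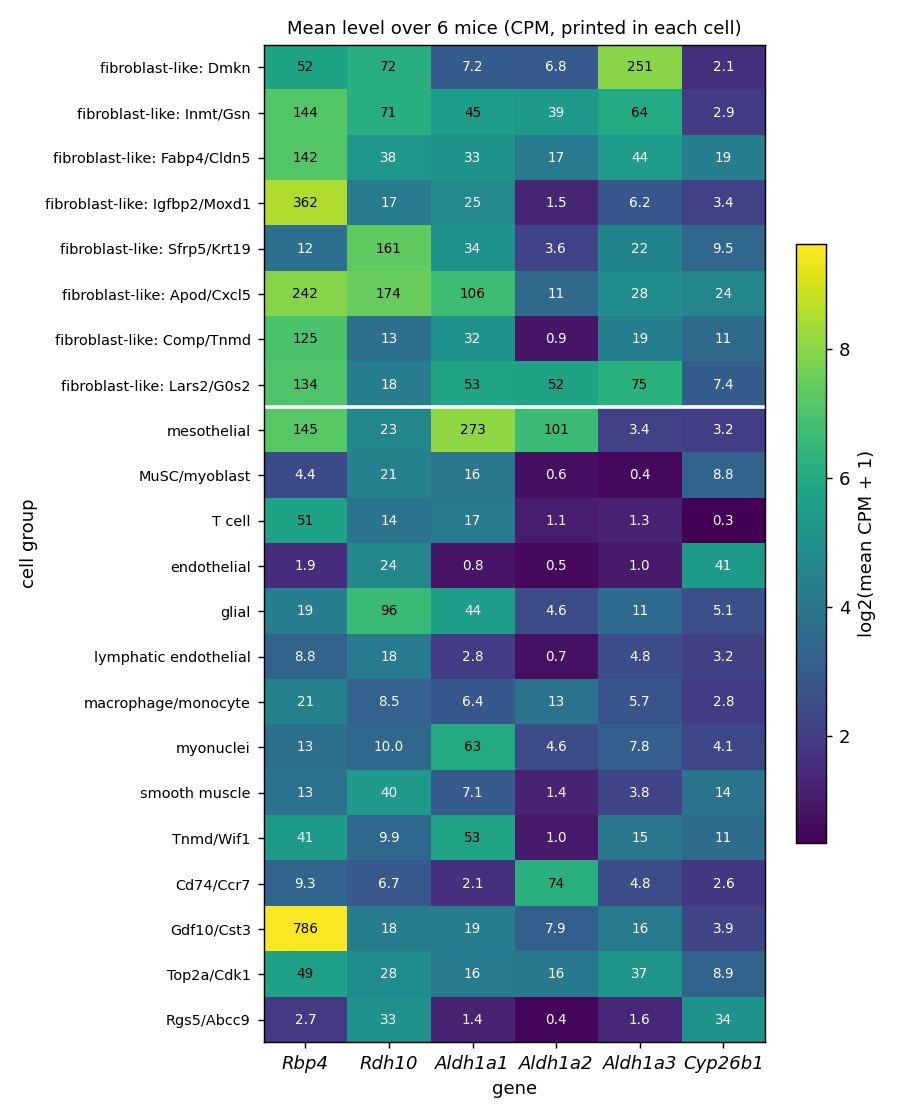
Mean level of each gene over the 6 mice in CPM, printed in each square, for 22 cell groups (rows; fibroblast-like subgroups above the white line) and 6 genes (columns), with color on a log2(CPM + 1) scale. Aldh1a1 stands out in mesothelial cells (273 CPM) and Aldh1a3 in Dmkn fibroblast-like cells (251 CPM). Rbp4 has its highest mean in Gdf10/Cst3 cells (786 CPM) and Cyp26b1 in endothelial cells (41.2 CPM), but both groups overlapped the next group over mice.

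By the share of cells with at least 1 UMI, Aldh1a1 and Aldh1a2 were again highest in mesothelial cells and Aldh1a3 in Dmkn cells. For Rbp4 and Cyp26b1 the order depended on depth. Rbp4 UMIs were in 72.4% of Igfbp2/Moxd1 and 35.4% of Gdf10/Cst3 cells (median depth 10324 and 1568 UMIs), but in 25.4% and 29.8% once every cell was thinned to 1000 UMIs. Cyp26b1 UMIs were in 26% of Rgs5/Abcc9 and 13.7% of endothelial cells (median depth 12126 and 3381 UMIs), but in 3.30% and 5.21% after thinning. Of mesothelial cells 80.1% had an Aldh1a1 UMI and 50.1% an Aldh1a2 UMI, against 0.348% and 0.195% of endothelial cells, where neither gene is expected. Median depth was 10836 UMIs in mesothelial and 3381 in endothelial cells. After every cell was thinned to 1000 UMIs, with 55 mesothelial and 2029 endothelial cells too shallow to keep, the shares were 23.0% and 6.89% in mesothelial against 0.0557% and 0.0418% in endothelial cells. Aldh1a3 UMIs were in 64.1% of Dmkn cells (20.5% thinned) and in 1.97% of mesothelial cells (0.186% thinned). Cyp26b1 UMIs were in 2.56% of mesothelial cells (0.186% thinned), below endothelial cells on both counts.

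Where the UMIs of a gene lay in the tissue depended on cell numbers as well as on level. Fibroblast-like cells held 92.1% of the Aldh1a3 UMIs and 80.2% of the Rbp4 UMIs on average over mice, and 58.4% of those of Rdh10. Fibroblast-like cells held 24.1% to 59.6% of the Aldh1a2 UMIs in the WT mice, and 81.6%, 79.5% and 47.7% in Arom1, Arom2 and Arom3. Mesothelial cells held 37.2%, 47.1% and 24.1% of them in WT and 12.3%, 14.7% and 40.0% in Aromhum mice. Arom3 lay within the WT range in both. For Aldh1a1 it did not, as fibroblast-like cells held 28.1% in Arom3 and 45.9% to 67.5% in the other mice, and mesothelial cells 60.8% in Arom3 and 24.2% to 30.8% in the others. Cyp26b1 lay in endothelial cells for 50.1% to 58.1% of its UMIs in WT and in fibroblast-like cells for 64.5% and 77.7% in Arom1 and Arom2, but not in Arom3 (25.5%).

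**Figure D2:**
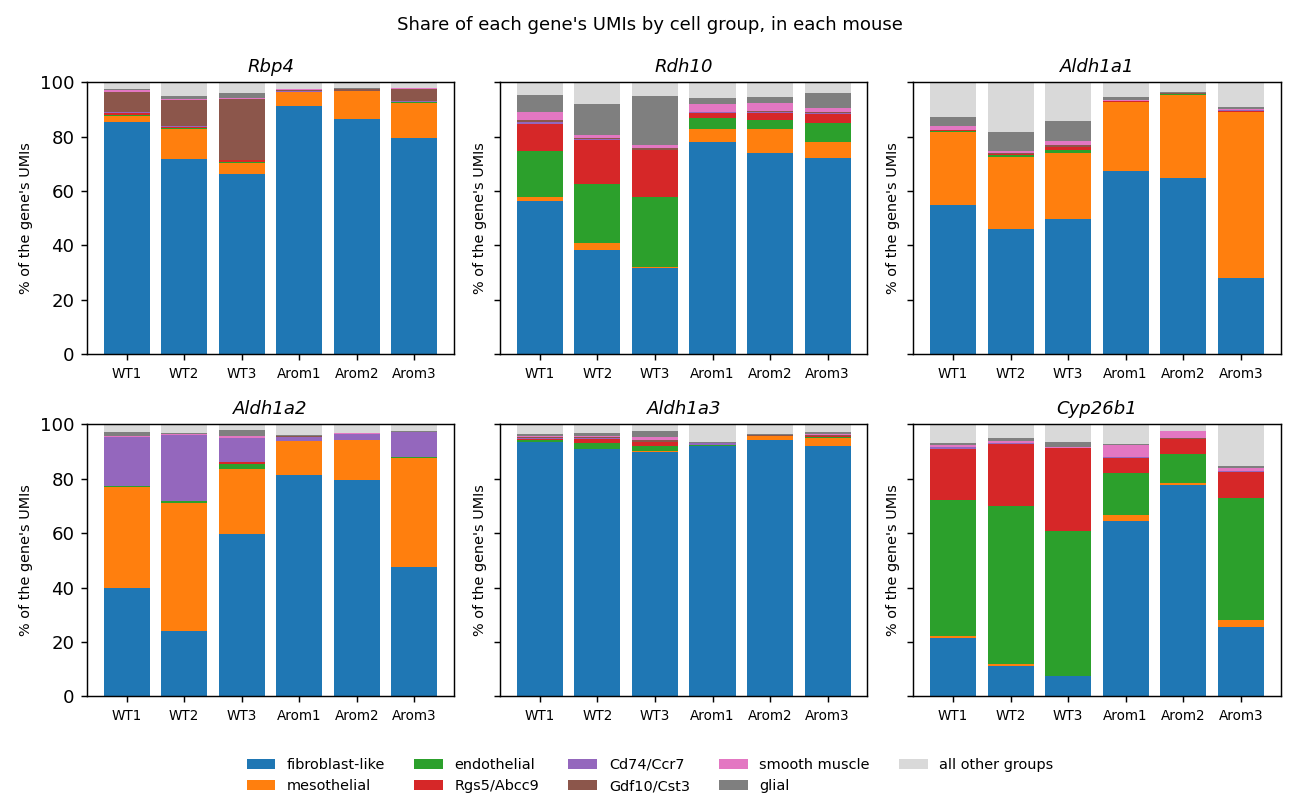
Share (%) of the UMIs of each gene that lay in each cell group, as 1 stacked bar per mouse. For Aldh1a2 the fibroblast-like part was 24.1% to 59.6% in WT and 81.6%, 79.5% and 47.7% in Aromhum mice, whereas for Aldh1a3 it averaged 92.1%.

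The gene that followed each member most closely over 28 cell groups was Tmem53 for Aldh1a1 (Pearson r = 0.87 on log2(mean CPM + 1)), Tnfsf13b for Aldh1a2 (r = 0.66), Scara5 for Aldh1a3 (r = 0.89), Plscr4 for Rdh10 (r = 0.76), Mmp2 for Rbp4 (r = 0.89) and Nuak1 for Cyp26b1 (r = 0.73). Among the members themselves, Aldh1a1 and Rbp4 were the most alike (r = 0.65), and Aldh1a2 and Cyp26b1 the least (r = -0.35). These values describe 28 groups that share libraries and depth.

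In the whole suspension, 4 of the 6 genes were higher in Aromhum mice, against a background of 23.6% of 15334 genes called in either direction. Aldh1a2 was at 8.48, 8.78 and 6.89 CPM in WT1, WT2 and WT3 and at 44.7, 46.7 and 24.3 CPM in Arom1, Arom2 and Arom3, on the TMM-scaled CPM used for all genotype comparisons. All Aromhum mice lay above all WT mice, and the log2 fold change was 2.26 (SE 0.27, edgeR adjusted p = 0.018). Rbp4 rose by 1.29 (SE 0.20, edgeR adjusted p = 0.018), from 66.1, 65.0 and 63.4 to 209, 140 and 127 CPM, with 3 nearly equal WT mice and 3 scattered Aromhum mice. Aldh1a1 rose by 1.49 (SE 0.34, edgeR adjusted p = 0.030), and Rdh10 by 0.56 (SE 0.12, edgeR adjusted p = 0.028). Aldh1a3 (16.9 to 39.7 CPM in WT and 30.6 to 48.0 CPM in Aromhum mice) and Cyp26b1 (11.4 to 47.2 and 5.15 to 24 CPM) overlapped between genotypes. Sums over the whole suspension cannot tell more cells of a type from more RNA per cell. Without WT2, WT3, Arom1 or Arom2 in turn, none of the 4 calls held, with edgeR adjusted p of 0.062 to 0.10, and without WT1 the Rdh10 call was lost (0.061).

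Within fibroblast-like cells, Aldh1a2 and Rdh10 were higher in Aromhum LAM, which is 2 of 6 genes against 16.3% of the 14046 genes tested. Aldh1a2 was at 7.11, 6.81 and 16.7 CPM in WT and 61.1, 57.6 and 22.4 CPM in Aromhum mice. Arom1 and Arom2 lay far above WT, while Arom3 stood only a little above WT3, and the log2 fold change was 2.23 (SE 0.49, edgeR adjusted p = 0.029). The blocked fit did not call it (2.24, edgeR adjusted p = 0.062; background 13.9% of genes). Rdh10, the enzyme of the step before, was at 33.6, 33.1 and 44.5 CPM in WT and 63.1, 47.4 and 60.1 CPM in Aromhum mice. Its groups did not overlap, and it rose by 0.62 (SE 0.16, edgeR adjusted p = 0.042). With any 1 of WT1, WT2, WT3, Arom1 and Arom2 left out neither gene was called, at adjusted p of 0.058 to 0.14, whereas without Arom3 the adjusted p was 0.0038 for Aldh1a2 and 0.044 for Rdh10. Among barcodes within the quality limits of the study, which kept 348 to 2726 fibroblast-like cells per mouse, the changes were 1.16 for Aldh1a2 (edgeR adjusted p = 0.12) and 0.46 for Rdh10 (edgeR adjusted p = 0.37).

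The other 4 genes were not called in fibroblast-like cells. Rbp4 was at 119, 150 and 171 CPM in WT and 320, 188 and 195 CPM in Aromhum mice, a difference of 0.67 (SE 0.24, edgeR adjusted p = 0.091), which DESeq2 called. Its groups did not overlap, with Arom1 well above the rest. Aldh1a1 was at 39.9, 33.2 and 36.6 CPM in WT and 69.8, 100.2 and 27.1 CPM in Aromhum mice, so Arom1 and Arom2 lay above WT and Arom3 below it (0.85, SE 0.41, edgeR adjusted p = 0.19). Aldh1a3 was at 54.5 to 78.4 CPM in WT and 54.4 to 70.3 CPM in Aromhum mice, a difference of -0.05 (SE 0.16) that lay within the spread of the mice and turned positive (0.93) once the 2 subgroups with few WT cells described further on were left out. Cyp26b1 varied more between mice of a genotype than between genotypes, at 5.51, 17 and 3.53 CPM in WT and 11.8, 29.0 and 2.54 CPM in Aromhum mice.

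**Figure D3:**
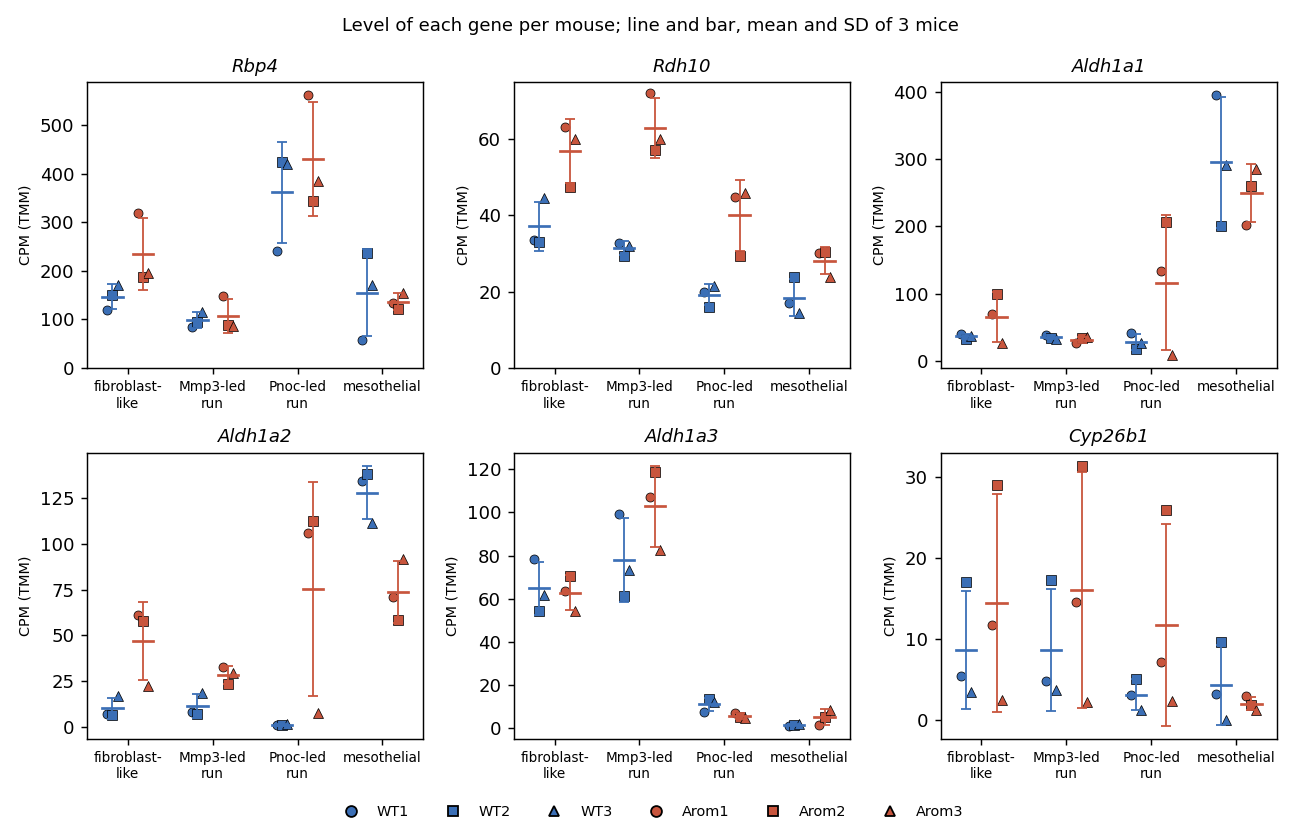
Level per mouse in TMM-scaled CPM (y axis, 1 panel per gene, scales differ) in fibroblast-like cells, 2 runs of fibroblast-like cells (stretches of consecutive columns of the deposited table, named by leading genes), and mesothelial cells; points are mice, and the line and bar are the mean and SD of 3 mice. In fibroblast-like cells Aldh1a2 reaches 61.1 and 57.6 CPM in Arom1 and Arom2 but 22.4 CPM in Arom3, and in mesothelial cells all 3 Aromhum mice (58.4 to 91.7 CPM) lie below WT (111 to 138 CPM).

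In mesothelial cells, first of the ranked groups for Aldh1a2, the values lay in the opposite direction. Aldh1a2 was at 134, 138 and 111 CPM in WT and 70.8, 58.4 and 91.7 CPM in Aromhum mice. Every Aromhum mouse lay below every WT mouse, with a difference of -0.80 (SE 0.19) that edgeR did not call (adjusted p = 0.081). The mesothelial marker Upk3b was also lower in each Aromhum mouse in these cells (mean 1473 against 782 CPM), while Msln was not (2556 against 2585 CPM), and the 6 mesothelial markers overlapped in sum (5268 to 8088 and 4047 to 7135 CPM). The 6 fibroblast markers summed to 15566 to 16769 CPM in WT and 18317 to 19177 CPM in Aromhum mice, and the part of these markers in the Aldh1a2 values was not tested. In mesothelial cells 0 of 6 genes were called by edgeR, against an edgeR background of 0.222% of 11713 genes. DESeq2 called 1, but it also called more genes of the whole table than edgeR did, as given in the last section. By edgeR, 2 of the 6 had an unadjusted p under 0.05, and no background is given for that threshold. Rdh10, the other of the 2, was at 17.1, 23.7 and 14.3 CPM in WT and 30.1, 30.3 and 23.9 CPM in Aromhum mice (0.56, SE 0.21, edgeR adjusted p = 0.19), with WT2 just below Arom3. Aldh1a1 overlapped (395, 200.1 and 292 CPM in WT; 202, 260.1 and 286 CPM in Aromhum mice), as did Rbp4 (57.8 to 237 and 121 to 155 CPM). The WT values rest on 149, 173 and 68 mesothelial cells and the Aromhum values on 662, 1011 and 676.

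The genotype effect on Aldh1a2 differed between the 2 cell types. In a model of fibroblast-like and mesothelial cells of the same 6 mice, the effect in fibroblast-like minus that in mesothelial cells was 3.04 on the log2 scale (SE 0.59, edgeR adjusted p = 0.046), and Aldh1a2 was the 1 member called against 1.72% of 13887 genes. DESeq2 was not run on this model. The call was lost by a small margin with limma voom (adjusted p = 0.055), and with any 1 of WT1, WT2, WT3, Arom1 and Arom2 left out (0.10 to 0.16). Of the 35 genes of the retinoid list tested, the other one called was Tgm2, a transglutaminase gene that retinoic acid induces (1.58, edgeR adjusted p = 0.038).

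Fibroblast-like cells were then split into subgroups, of which 8 had at least 10 cells in every mouse. Aldh1a2 could be tested in 4 of them and was higher in Aromhum mice in 4 of 4, by 1.11 to 2.72 on the log2 scale. Rdh10 was higher in 6 of 8. Cyp26b1 was lower in 4 of 4, with log2 fold changes of -1.36 to -0.066, but 0 of these were called. In the runs of columns described further on, Cyp26b1 was higher in 3 of 4 (-0.61 to 1.86). Over the 37 tests of members in subgroups, 5 were called, 4 of them higher and 1 lower in Aromhum mice, and the blocked fit called 8. Over all genes, 0.152% to 3.54% were called in a subgroup, and with the block 1.98% to 6.11% in the 3 subgroups where it changed a member's call.

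In the Lars2/G0s2 cells, Aldh1a2 was at 23.1, 9.70 and 31.4 CPM in WT and 125, 87.1 and 40.0 CPM in Aromhum mice (2.01, SE 0.41, edgeR adjusted p = 0.014; background 3.54% of genes). The groups did not overlap, and Arom3 was again the lowest of the Aromhum mice. DESeq2 did not call it (adjusted p = 0.072), nor did edgeR without WT2 (0.079) or Arom1 (0.082). Aldh1a1 was at 68.9, 58.8 and 65.7 CPM in WT and 41.8, 35.6 and 52.4 CPM in Aromhum mice, without overlap, and was called by the blocked fit (-0.56, edgeR adjusted p = 0.026; background 6.11%) and not without the block (-0.51, edgeR adjusted p = 0.098). In the Inmt/Gsn cells, the largest subgroup of WT fibroblast-like cells, Rdh10 rose from 45.2, 41.1 and 55.4 to 107, 90.4 and 83.1 CPM (0.98, SE 0.14, edgeR adjusted p = 0.020; background 0.183%). Every Aromhum mouse stood well clear of WT here, although the call was lost without WT2 (0.086), Arom1 (0.059) or Arom2 (0.10). In the same cells Aldh1a2 was at 19.9, 14.6 and 41.0 CPM in WT and 66.9, 35.2 and 56.7 CPM in Aromhum mice (1.11, edgeR adjusted p = 0.19), with WT3 above Arom2, and the blocked fit called it (1.08, edgeR adjusted p = 0.0072; background 2.57%).

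Of the 8 subgroups, Aldh1a3 was called in the Comp/Tnmd cells alone, whose leading genes are those of tendon, and there it fell. It was at 26, 22.2 and 33.0 CPM in WT and 10.4, 10.1 and 14.7 CPM in Aromhum mice (-1.09, SE 0.22, edgeR adjusted p = 0.032; background 1.7%), with no overlap. The call was lost without WT3 (0.091), Arom1 (0.13) or Arom2 (0.12). Rdh10 was not called in these cells, and its values lay lower in Aromhum mice with some overlap (12.6, 15.6 and 15.2 CPM in WT and 8.17, 10.1 and 14.7 CPM in Aromhum mice).

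The Fabp4/Cldn5 cells carried endothelial genes beside fibroblast genes. Endothelial markers summed to 1481, 1712 and 1786 CPM in WT and 1105, 1263 and 1197 CPM in Aromhum mice, without overlap, and their part in the calls was not tested. Of these cells 29.4% to 55.7% in WT and 67.0% to 75.7% in Aromhum mice were marked as doublets. Aldh1a2 was at 2.72, 5.23 and 6.08 CPM in WT and 51.9, 17.6 and 17.8 CPM in Aromhum mice (2.72, SE 0.53, edgeR adjusted p = 0.028). Its WT values rest on few UMIs, with at most 3, 3 and 2 in any cell of WT1, WT2 and WT3. Rdh10 was at 28.6, 20.3 and 32.1 CPM in WT and 45.7, 45.0 and 55.4 CPM in Aromhum mice (0.86, SE 0.19, edgeR adjusted p = 0.048). The background was 2.38% of genes. Without the marked doublets Aldh1a2 kept its call (4.11, edgeR adjusted p = 0.020) and Rdh10 did not (0.52, edgeR adjusted p = 0.49). With doublets included, at least 3 Aldh1a2 UMIs were in 1, 1 and 0 WT cells and in 10, 6 and 5 Aromhum cells. Those Aromhum cells held 92.3%, 76.3% and 67.6% of the Aldh1a2 UMIs of the subgroup in their mice. Pgr, a marker of the Esr1hi cells, was at 0.85 to 2.67 CPM in WT and 33.6 to 68.1 CPM in Aromhum cells of the subgroup. The part of cells like the Esr1hi cells in these calls was not tested. The Aldh1a2 call was lost without WT1 (0.093), WT2 (0.13), WT3 (0.11) or Arom1 (0.053), and the Rdh10 call without any 1 of the 6 mice (0.055 to 0.17).

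In 4 subgroups no member was called by edgeR: Dmkn (background 0.315%), Igfbp2/Moxd1 (0.755%), Sfrp5/Krt19 (0.235%) and Apod/Cxcl5 cells (0.152%). At an unadjusted p under 0.05 there were 2, 1, 1 and 1 members in them, and DESeq2 called 0, 1, 0 and 0. No background is given for that threshold or for DESeq2, so these counts cannot be read as an excess. In Dmkn cells, where Aldh1a3 is highest, it was at 225, 202 and 253 CPM in WT and 304, 301 and 226 CPM in Aromhum mice, with WT3 above Arom3 (0.29, SE 0.16, edgeR adjusted p = 0.42). In Igfbp2/Moxd1 cells, Rbp4 was at 333, 610 and 535 CPM in WT and 204, 202 and 320 CPM in Aromhum mice, the reverse of its direction over all fibroblast-like cells (-0.99, SE 0.26, edgeR adjusted p = 0.14). The blocked fit called it (-1.02, edgeR adjusted p = 0.029; background 1.98%). These groups came close, at 333 CPM in WT1 and 320 CPM in Arom3, but did not overlap. The 6 fibroblast markers were lower in these Aromhum cells too, at 25964 to 32528 CPM against 35265 to 43671 CPM in WT, and their part in this was not tested.

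**Figure D4:**
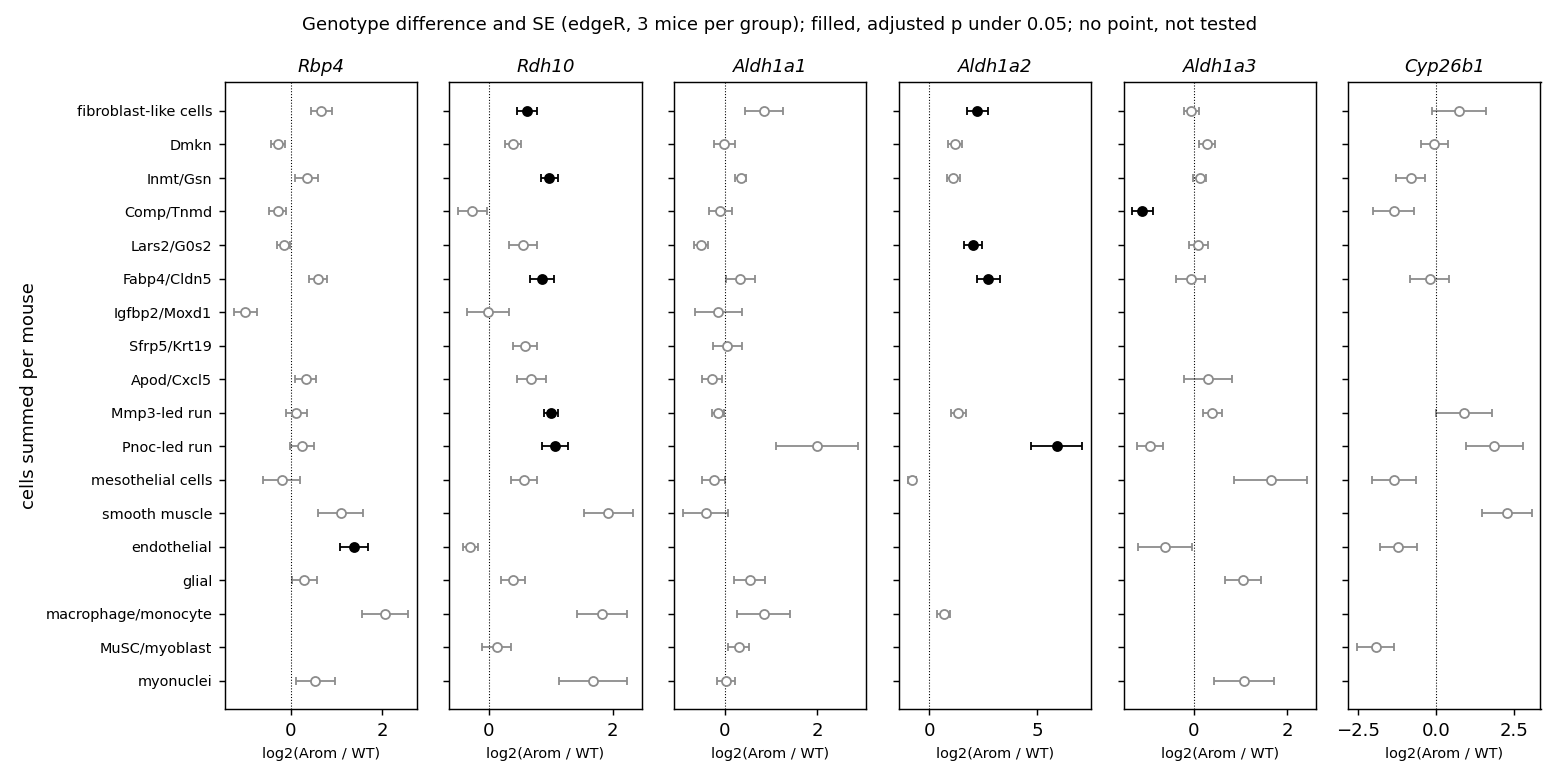
Log2 fold change of Aromhum over WT (x axis, 1 panel per gene, scales differ) with its SE from edgeR for fibroblast-like cells, their subgroups and runs, and other cell types (rows); filled points have an adjusted p under 0.05, and a row without a point was not tested. Aldh1a2 lies right of 0 in each fibroblast-like row tested and left of 0 in mesothelial cells (-0.80), and Aldh1a3 has its filled point left of 0, in Comp/Tnmd cells (-1.09).

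The subgroup named after Esr1, the estrogen receptor gene (the Esr1hi cells), could not be compared, as it held 31, 12 and 1 WT cells against 1412, 1791 and 515 Aromhum cells. The values show where much of the Aromhum signal lay. Aldh1a2 was at 97.0, 109 and 9.08 CPM in these cells of Arom1, Arom2 and Arom3, and they held 55.5%, 61.2% and 4.68% of all Aldh1a2 UMIs of these mice. For Aldh1a1 the levels were 125, 204 and 6.49 CPM and the shares 51.7%, 53.7% and 1.63%. Arom3 had 515 such cells, with levels of both genes far below those of Arom1 and Arom2. Esr1 itself was at 170, 198 and 331 CPM in these cells of Arom1, Arom2 and Arom3, so it was highest where Aldh1a2 and Aldh1a1 were lowest, and the Igfbp2/Moxd1 cells had Esr1 at 266 ± 47.2 CPM with Aldh1a2 at 0 to 6.57 CPM. Without these and the Mmp3hi cells, a second subgroup that held 59, 1 and 1 WT cells and 678, 1229 and 10 cells of Arom1, Arom2 and Arom3, Aldh1a2 (1.60, edgeR adjusted p = 0.044) and Rdh10 (1.04, edgeR adjusted p = 0.026) were still called in fibroblast-like cells, whereas the differences of Aldh1a1 (-0.24) and Rbp4 (-0.25) turned negative and that of Aldh1a3 turned positive (0.93, SE 0.28, edgeR adjusted p = 0.089). The count of all genes called in this fit, its background, is given in the last section. This fit still held a subgroup led by Ahsg and Cxcl5, with 12, 4 and 2 WT against 536, 469 and 231 Aromhum cells. Of the cells of that subgroup 23.0% had an Aldh1a2 UMI and 41.1% an Rdh10 UMI, and its part in the result was not tested.

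The columns of the deposited table run through the 6 mice 30 times, in unlabelled stretches that follow cell type, and 94.2% of the fibroblast-like cells lay in such runs of fibroblast-like cells. One of these runs, led by Pnoc, held 486, 263 and 173 WT and 1369, 1749 and 726 Aromhum cells, of which 69.4% were Esr1hi cells. Its WT cells were mainly Igfbp2/Moxd1 cells (59.3%) and its Aromhum cells were not (4.73%), so WT and Aromhum cells of the run fell mostly into different subgroups. Esr1 was at 214 to 240 CPM in WT and 176 to 303 CPM in Aromhum cells of it. The runs were taken up after the data had been seen.

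In this Pnoc-led run, 2 of 6 members were called, against 13.9% of 12188 genes. Aldh1a2 was at 1.23, 0.944 and 1.75 CPM in WT and 106, 112 and 7.88 CPM in Aromhum mice. Even Arom3 lay above WT, but far below Arom1 and Arom2, and the log2 fold change was 5.90 (SE 1.18, edgeR adjusted p = 0.020). The WT values rest on 7, 3 and 4 UMIs. Rdh10 was at 19.8, 16 and 21.4 CPM in WT and 44.8, 29.2 and 46.0 CPM in Aromhum mice, without overlap and with Arom3 the highest (1.07, SE 0.21, edgeR adjusted p = 0.019). The Aldh1a2 call was lost without WT1, WT2, WT3 or Arom1 (0.069 to 0.078), and the Rdh10 call without any of the same 4 (0.057 to 0.084). Aldh1a1 was at 41.3, 18.2 and 26.6 CPM in WT and 133, 207 and 9.29 CPM in Aromhum mice, with Arom3 below all WT mice (2.00, SE 0.89, edgeR adjusted p = 0.16). Cyp26b1 was at 3.16, 5.03 and 1.31 CPM in WT and 7.16, 25.9 and 2.32 CPM in Aromhum mice, with Arom3 among WT, and was called by the blocked fit (1.68, edgeR adjusted p = 0.013; background 18.2%) and not without the block (1.86, edgeR adjusted p = 0.20).

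The Aldh1a2 and Aldh1a1 RNA of this run was concentrated in part of the cells. No WT cell of the run had more than 2 Aldh1a2 UMIs, whereas 184, 252 and 15 cells of Arom1, Arom2 and Arom3 had at least 3, with up to 77, 108 and 28 UMIs in 1 cell. These cells, 13.4%, 14.4% and 2.07% of the run, held 94.7%, 94.1% and 79.8% of its Aldh1a2 UMIs. At least 3 Aldh1a1 UMIs were found in 23, 7 and 5 WT cells and in 186, 386 and 13 Aromhum cells. Of the Arom1 and Arom2 cells with at least 3 Aldh1a2 UMIs, 46.7% and 54.8% also had at least 3 of Aldh1a1, against 8.44% and 16.6% of the remaining cells. In Arom3 0 of 15 did, against 1.83% of the rest. Depth differed in the same direction, with a median of 24242 against 16669 UMIs in Arom1 and 17942.5 against 13709 in Arom2, and its part in this was not tested. Of these cells 0% to 1.59% were marked as doublets, and Msln, the mesothelial marker, was at 0 to 2.56 CPM in them.

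Rdh10 was at 42.1, 30.8 and 32.0 CPM in the Aldh1a2 cells of Arom1, Arom2 and Arom3 and at 43.8, 28.5 and 48.2 CPM in the rest, so no mouse had clearly more of it in the Aldh1a2 cells of this run. Rbp4 was at 285 and 251 CPM in these cells of Arom1 and Arom2 against 605 and 358 CPM in the rest, and Cyp26b1 at 13 and 45.0 CPM against 5.60 and 21.3 CPM. Esr1 was at 189, 206 and 343 CPM in the Aldh1a2 cells of Arom1, Arom2 and Arom3 and at 173, 199 and 302 CPM in the rest. Pgr was at 170, 234 and 170 CPM against 126, 202 and 108 CPM. No test was made of these values. In mesothelial cells, 50% to 78.7% of the cells with at least 3 Aldh1a2 UMIs had at least 3 of Aldh1a1, against 31% to 54.5% of the others. The cells with Aldh1a2 were deeper in every mouse, with median UMIs of 15829 to 26635 against 6956 to 11828 in the others, and the part of depth in this was not tested. In the Mmp3-led run, the largest of the fibroblast-like runs, the corresponding shares were 0.763% to 7.08% and 2.58% to 4.78%, without a gap between the ranges. Rdh10 differed there, at 92.4, 68.3 and 79.6 CPM in the Aldh1a2 cells of WT and 196, 175 and 123 CPM in those of Aromhum mice, against 30.9, 30.7 and 31.4 CPM and 62.6, 51.1 and 59.5 CPM in the rest. It was higher in the Aldh1a2 cells in 6 of 6 mice of the Mmp3-led run as a whole, which is a description without a test. Within subgroups it was not so in every mouse, as Rdh10 was at 75.9 CPM in the Aldh1a2 cells against 94.1 CPM in the rest of the Inmt/Gsn cells of Arom2, and at 0 against 11.5 CPM and 11.8 against 14.5 CPM in the Lars2/G0s2 cells of WT2 and WT3.

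**Figure D5:**
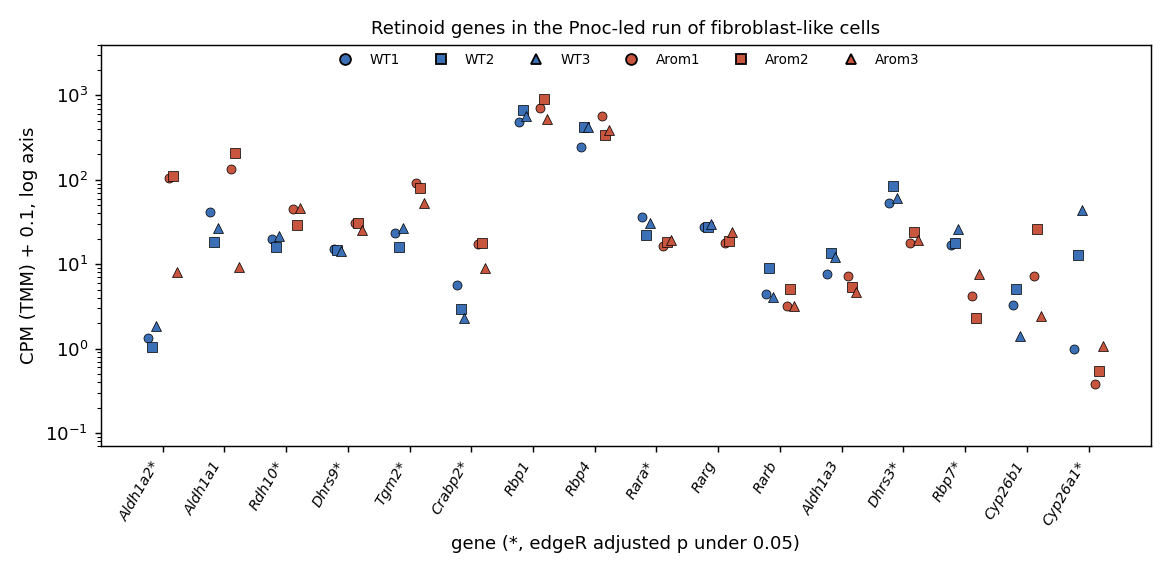
Level per mouse in TMM-scaled CPM + 0.1 (log axis) of 16 retinoid genes in the Pnoc-led run of fibroblast-like cells; each point is 1 mouse, and an asterisk marks an edgeR adjusted p under 0.05. Aldh1a2 is at 106 and 112 CPM in Arom1 and Arom2, 7.88 CPM in Arom3 and 0.944 to 1.75 CPM in WT, and Dhrs3 is lower in all 3 Aromhum mice. WT cells of the run were mainly Igfbp2/Moxd1 cells (59.3%) and Aromhum cells were not (4.73%).

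Other genes of the pathway were also called in this run. Of the 28 genes of the retinoid list tested, 5 were higher and 4 lower in Aromhum mice, beside the 13.9% of all genes called in this run, with a list median of 0.23 against 0.00 over all genes. Higher beside Aldh1a2 and Rdh10 were Dhrs9, a retinol dehydrogenase gene (0.97, edgeR adjusted p = 0.0089), Crabp2, which carries retinoic acid to its receptors (5.62, 2.83 and 2.18 against 17.4, 17.7 and 8.80 CPM; 1.91, edgeR adjusted p = 0.022), and Tgm2 (23.4, 15.7 and 26.6 against 91.3, 79.0 and 52.4 CPM; 1.77, edgeR adjusted p = 0.0084). Lower were Dhrs3, which reduces retinal back to retinol (53.6, 83.7 and 61.6 against 17.7, 23.9 and 19.5 CPM; -1.70, edgeR adjusted p = 0.0046), the receptor gene Rara (-0.72, edgeR adjusted p = 0.038), Rbp7 (-2.13, edgeR adjusted p = 0.020) and Cyp26a1, a relative of Cyp26b1 (0.878, 12.6 and 43.7 against 0.278, 0.441 and 0.978 CPM; -5.03, edgeR adjusted p = 0.028). WT1 fell inside the Aromhum range for Cyp26a1, and the other named genes did not overlap. The 5 endothelial markers in this run summed to 109 to 216 CPM in WT and 88.6 to 103 CPM in Aromhum mice, without overlap. Fibroblast markers were lower in Aromhum mice as well (38180 to 46295 against 29054 to 31172 CPM). Macrophage (15.2 to 21.8 against 34.1 to 70.8 CPM) and mesothelial markers (0.516 to 3.21 against 3.94 to 13.7 CPM) were higher, all without overlap. WT and Aromhum cells of this run also fell mostly into different subgroups, as given where the run was introduced. The part of that mix and of these markers in the lower and higher values was not tested.

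Of the other 4 fibroblast-like runs with enough cells, 1 had a call, the Mmp3-led run, which is named by its leading gene. It held 2780, 1980 and 1168 WT and 3114, 4577 and 2353 Aromhum cells. Mmp3hi cells numbered 59, 1 and 1 in WT and 678, 1229 and 10 in Aromhum mice, so most cells of the run were of other subgroups. The part of a changed mix of subgroups in its values was not tested. In the Mmp3-led run Rdh10 rose from 32.7, 29.4 and 32.0 to 72.0, 57.1 and 59.9 CPM (1.01, SE 0.12, edgeR adjusted p = 0.034; background 2.81%), a clear gap between tight groups, though the call was lost without any 1 mouse other than Arom3 (0.073 to 0.16). Aldh1a2 was at 8.49, 7.17 and 18.8 CPM in WT and 33.0, 23.3 and 29.4 CPM in Aromhum mice of this run (1.34, SE 0.35, edgeR adjusted p = 0.071), and here Arom3 was like the other Aromhum mice. The Wif1-led (background 0.457%), Apod-led (0.367%) and Gdf10-led runs (0.0308%) had no member called by edgeR or DESeq2, with 1, 1 and 2 members at an unadjusted p under 0.05. These backgrounds are of the adjusted threshold, and none is given for the unadjusted p.

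Over all fibroblast-like cells, 5 genes of the retinoid list rose and 2 fell among 33 tested, a share not far from the 16.3% of all genes called in this comparison, with a list median of 0.14 against 0.00 over all genes. Beside the 2 members, Tgm2 (1.11, edgeR adjusted p = 0.017) and Dhrs9 (1.72, edgeR adjusted p = 0.029) rose, and so did Bco1, which cleaves beta-carotene to retinal. Bco1 had 0 UMIs in all 3 WT mice, which allows levels of up to 0.0935, 0.131 and 0.189 CPM, and was at 2.00, 1.45 and 0.626 CPM in Aromhum mice (edgeR adjusted p = 0.020). It passed the low-count filter through the Aromhum mice alone, so this call, 1 of the 5, is a comparison with counts of 0. The receptor gene Rarg (-0.42, edgeR adjusted p = 0.040) and Rbp7 (-1.67, edgeR adjusted p = 0.022) fell. Endothelial markers in fibroblast-like cells were lower as well, at 138 to 197 CPM in sum in WT and 86.2 to 94.5 CPM in Aromhum mice, and their part in these changes was not tested. In mesothelial cells 0 of 27 genes of the list were called by edgeR and 2 by DESeq2, which called more genes of the whole table there than edgeR did. In Comp/Tnmd cells Crabp2 rose by 3.57 (2.85, 3.39 and 2.67 against 66.1, 31.7 and 19.4 CPM, edgeR adjusted p = 0.0045).

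Beyond fibroblast-like and mesothelial cells, 8 cell types were tested and 1 of 26 tests of members was called, and 6 in the blocked fit. It was Rbp4 in endothelial cells, which rose from 1.25, 1.14 and 0.787 to 2.44, 2.36 and 3.32 CPM (1.39, SE 0.30, edgeR adjusted p = 0.018; background 14.3%). Rbp4 UMIs were in 0.604% of endothelial cells against 42.4% of fibroblast-like cells, and the 6 fibroblast markers in endothelial cells summed to 209 to 283 CPM in WT and 361 to 504 CPM in Aromhum mice. Their part in the result was not tested. The call was lost without WT2 (0.054), WT3 (0.052), Arom1 (0.061) or Arom3 (0.057). Aldh1a2 in the same cells was at 0.155 to 0.390 CPM in WT and 0.403 to 1.05 CPM in Aromhum mice before TMM scaling. These values rest on 2, 4 and 8 UMIs in WT1, WT2 and WT3 and on 4, 7 and 9 in Arom1, Arom2 and Arom3. The groups are parted only by WT3 (0.390 CPM) and Arom1 (0.403 CPM), too few UMIs to read as a difference. What part of the Aldh1a2 UMIs came from RNA of other cells was not tested.

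Cyp26b1, which breaks down retinoic acid, had its highest mean in endothelial cells and varied by mouse there. It was at 30.8, 119 and 19.7 CPM in WT and 18.3, 39.9 and 16.7 CPM in Aromhum mice (-1.21, SE 0.60, edgeR adjusted p = 0.20). The blocked fit called it (-0.89, edgeR adjusted p = 0.0092; background 24.1%). WT2 and Arom2 were the highest of their groups in endothelial as in fibroblast-like cells. In muscle stem cells and myoblasts Cyp26b1 was at 8.50, 26 and 8.47 CPM in WT and 1.18, 6.36 and 3.30 CPM in Aromhum mice, without overlap (-1.94, SE 0.60, edgeR adjusted p = 0.10; background 2.54%), and the blocked fit called it (-1.97, edgeR adjusted p = 0.014; background 6.29%). Endothelial markers in these cells were lower too, at 364, 550 and 503 CPM in sum in WT and 92.5, 88.3 and 319 CPM in Aromhum mice. In smooth muscle cells it was at 1.93, 10.0 and 1.80 CPM in WT and 25.7, 40.3 and 2.59 CPM in Aromhum mice, where Arom3 fell among WT (2.26, SE 0.80, edgeR adjusted p = 0.17), and the blocked fit called it (2.29, edgeR adjusted p = 0.011; background 5.56%). Endothelial markers there were at 197, 146 and 193 CPM in WT and 315, 316 and 177 CPM in Aromhum mice, with Arom3 again among WT, and their part in the Cyp26b1 values of both cell types was not tested.

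Rdh10 and Rbp4 also had higher values in other Aromhum cells without passing the threshold of the fit without the block. In smooth muscle cells Rdh10 was at 26, 11.3 and 12.1 CPM in WT and 76.6, 81.2 and 30.0 CPM in Aromhum mice (1.93, SE 0.40, edgeR adjusted p = 0.056; background 0.748%), and it was called by the blocked fit (1.91, edgeR adjusted p = 0.0042). In myonuclei Rdh10 was at 1.51, 7.55 and 2.93 CPM in WT and 16, 22.0 and 7.62 CPM in Aromhum mice, with WT2 just below Arom3 (1.69, edgeR adjusted p = 0.33), and the blocked fit called it (1.93, edgeR adjusted p = 0.024; background 3.39%). Fibroblast markers overlapped between genotypes in smooth muscle cells (2486 to 4937 CPM in WT and 4218 to 5665 CPM in Aromhum mice) and in myonuclei (2048 to 5558 and 2200 to 6956 CPM). In myonuclei other markers did not overlap. Endothelial markers were lower in Aromhum mice (295 to 437 against 101 to 151 CPM). Macrophage (10.6 to 46.0 against 94.7 to 201 CPM) and mesothelial markers (1.33 to 6.64 against 13.4 to 57.1 CPM) were higher, and the part of these markers was not tested. In macrophages and monocytes Rdh10 was at 4.83, 2.93 and 2.17 CPM in WT and 12.9, 10.6 and 17.3 CPM in Aromhum mice (1.82, SE 0.40, edgeR adjusted p = 0.10; background 0.661%), and Rbp4 at 11.3, 2.93 and 8.69 against 23.2, 26.5 and 50.4 CPM (2.07, SE 0.50, edgeR adjusted p = 0.14). Neither overlapped, but the fibroblast markers in these macrophages summed to 2009 to 3158 CPM in WT and 5257 to 6654 CPM in Aromhum mice, and their part in this was not tested. DESeq2 called 1 member each in muscle stem cells, smooth muscle cells and macrophages. Glial cells (background 0.521%), myonuclei (0.306%), T cells (0.908%) and lymphatic endothelial cells (background 0%) had no member called by edgeR without the block or by DESeq2, with 1, 1, 0 and 0 members at an unadjusted p under 0.05. These backgrounds are of the adjusted threshold, and a background for the unadjusted p is given for lymphatic endothelial cells alone. The background of 0 in lymphatic endothelial cells came with 518 of 7631 genes at an unadjusted p under 0.05.

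Aldh1a1 reads could in part belong to its neighbor Aldh1a7 on the opposite strand of chromosome 19 (20692953 to 20727562). The transcripts share 279 of 2328 windows of 31 bases (12%), but 0 of 470 windows in the last 500 bases, where tags of this kind mostly fall. Aldh1a7 itself was at 0.717, 0 and 1.49 CPM in WT and 4.18, 4.90 and 0.0808 CPM in Aromhum fibroblast-like cells, with Arom3 low as for Aldh1a1.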

How the data were processed

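The deposited table held raw UMI counts per gene and barcode, which the authors made with Cell Ranger 3.0.2 on mm10 with human CYP19A1 added and read in 1 library per mouse. The step that left 16494 genes is not given in the sources used here. No column of per-sample values was left unused (0). All 63647 barcodes entered, since the study's limits (200 to 2500 genes, at least 1000 UMIs, at most 5% mitochondrial UMIs) left 18852 and removed unequal shares of the genotypes; they are an alternative. Cells were normalized to 10000, clustered on 2000 variable genes without retinoid genes (scanpy 1.11.5, 30 components, 20 neighbors, Leiden resolution 0.8) and named by marker genes; 6890 cells kept no cell type name. Scrublet marked doublets per mouse, and they were kept in the main comparisons.

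UMI counts were summed per mouse and cell type and tested with edgeR 4.0.16 (quasi-likelihood, TMM, filterByExpr, Benjamini-Hochberg over all genes tested, threshold 0.05) in R 4.3.3. Cell types needed 20 cells in every mouse and subgroups 10. Alternatives were RLE size factors, DESeq2 1.42.0, limma 3.58.1, no low-count filter, each mouse left out, the replicate number as a block, other cell limits, no doublets and other clustering. The runs of columns were added after the data were seen. The named genes are the 6 members, the genes of a retinoid list of 50 (38 in the table) past the threshold, and the closest gene by correlation. Members and lists were chosen with earlier results of these data known. The study processed 1 WT mouse and 1 Aromhum littermate on each of 3 dates, without stating which numbers share a date. Deviations of same-numbered mice correlated at 0.249, 0.155 and 0.326 in endothelial cells, above every other pairing. They were also above every other pairing in smooth muscle cells (0.179, 0.082 and 0.250) and glial cells (0.119, 0.037 and 0.156). In fibroblast-like cells they were not, at 0.200, -0.118 and 0.162, so both fits are given wherever the block changes a call. The scripts were tested on simulated data.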

Additional observations from a re-analysis of the deposited data

Results flagged for a closer look

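The effect of genotype on Aldh1a2 differed between 2 cell types of the same mice. The log2 effect in fibroblast-like cells minus that in mesothelial cells was 3.04 (SE 0.59, edgeR adjusted p = 0.046 over 13887 genes), and this test of the difference is what marked the result. All 3 Aromhum mice lay above WT in fibroblast-like cells and below WT in mesothelial cells, and without WT3 no gene of the table passed the threshold of this test (0 genes, against 239 with all 6 mice). The mesothelial values rest on 68 to 173 cells per WT mouse and 662 to 1011 per Aromhum mouse. In the mesothelial cells Upk3b (mean 1473 CPM in WT and 782 CPM in Aromhum mice) and Lrrn4 (555 and 381 CPM), both mesothelial markers, had lower means in Aromhum mice, and the fibroblast markers were higher without overlap (15566 to 16769 and 18317 to 19177 CPM in sum). The part of cell numbers and of these markers in the difference was not tested.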

How the results depend on the processing

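Fewer mice weaken most calls. With 1 mouse left out, the members called by genotype numbered 0 to 4 in fibroblast-like cells (2 with all mice), 0 to 1 in mesothelial cells (0), 0 to 4 in all cells summed (4), 0 to 6 over the subgroups (5), 0 to 3 over other cell types (1), 0 to 6 over the runs (3) and 0 to 2 in the interaction (1). Genes called in the whole table then ranged from 20 to 4228 in fibroblast-like cells (2283), 0 to 4877 in all cells (3612), 0 to 1384 in mesothelial cells (26), 0 to 1666 in the interaction (239) and 207 to 2629 in the Pnoc-led run (1690). Within the study's limits on barcodes, 0 members were called in fibroblast-like cells, 0 over the subgroups, 0 over other cell types and 1 over the runs. The whole table then gave 1 gene in fibroblast-like cells and 73 in the Pnoc-led run, and mesothelial cells were too few to test (8 in WT3). Without an upper limit on genes, 3 were called over the subgroups and 0 over other types, and with no low-count filter 9 and 5. DESeq2 called 1 in mesothelial cells, 4 over other types and 5 over the runs, and limma voom 0 in the interaction. In the whole mesothelial table, DESeq2 called 633 genes, the fit without a low-count filter 128, without doublets 65, without an upper limit 53 and the column run 40. The design pairs littermates by date, but not by a stated number. Deviations of same-numbered mice correlated above every other pairing in endothelial, smooth muscle and glial cells and not in fibroblast-like or mesothelial cells. A shared date belongs to mice and not to a cell type, so these values cannot tell which numbers share a date. With the replicate number as a block, 1 member was called in fibroblast-like cells, 8 over the subgroups and 6 over other types, and 433 genes in mesothelial cells. Over the runs it called 4, and in all cells 4. With equal weight for each fibroblast-like subgroup, 1 member was called and 366 genes, and 835 genes without the Esr1hi and Mmp3hi subgroups. The cause of these shifts was not tested.

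Directions reversed for uncalled values. In fibroblast-like cells Aldh1a1 went to -0.50 within the limits, -0.24 without the Esr1hi and Mmp3hi subgroups and -0.06 with equal weight. Aldh1a3 ranged from -0.16 (without WT2) to 0.12 (without WT1) with 1 mouse left out and was 0.06 without Arom3, 0.59 within the limits, 0.93 without those subgroups and 0.08 with equal weight. Cyp26b1 ranged from -0.27 (without Arom2) to 1.66 (without WT2) and was -0.35 with equal weight, and Rbp4 was -0.01 within the limits and -0.25 without those subgroups. In all cells Cyp26b1 ranged from -1.55 (without Arom2) to 0.18 (without WT2). In mesothelial cells Aldh1a1 ranged from -0.45 (without WT2) to 0.04 (without WT1), Cyp26b1 from -1.75 (without WT3) to 0.06 (without WT2) and Rbp4 from -0.58 (without WT1) to 0.29 (without WT2). Rdh10 in the interaction went to -0.27 without WT2 and -0.08 without Arom3. Within the limits the level of Aldh1a3 in Dmkn cells was 309 CPM (251 with every barcode) and that of Rdh10 in glial cells 20.0 CPM (95.5). Of 588 values of single genes, 457 kept their direction and their status, where a value that was not called and stayed uncalled counts as kept. Of the rest, 80 lost the call, 33 gained it and 18 reversed.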
